A study of Rattus norvegicus with 8 samples.

Results

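Of the 10411 genes that the array annotation names, 9 that act in growth control or protein breakdown under glucocorticoids were examined. Their transcripts were read in primary cultures of rat semicircular canal duct (SCCD) epithelium. These 9 were Trim63 (MuRF1), Fbxo32 (atrogin-1), Foxo1, Foxo3, Ddit4 (REDD1), Sesn1, Eif4ebp1 (4E-BP1), Irs1 and Irs2. The genes were chosen by their known roles and with the dexamethasone-against-control differences on these same 8 arrays in view. Those differences are therefore a description: no p-value is given for them, and counts of calls stand beside the share over all probe sets with nothing read from them. The 9 genes had 13 probe sets, groups of short probes that read 1 transcript. Of these, 8 probe sets, from 8 genes, passed a filter that asks for a mean signal of at least 100, and 5 did not.

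The SCCD is the epithelium that lines the fluid-filled canals of the inner ear. Primary cultures from neonatal Wistar rats were grown on permeable supports and were either untreated (control, n = 4) or exposed to 100 nM dexamethasone, a synthetic glucocorticoid (n = 4). Each sample was read on 1 Affymetrix array of type 230A, and arrays of type 230B, which the study also used, were not analysed here. How long the arrayed cultures were exposed, and the sex of the rats, are not given in the sources used here. The labels do not say whether samples of a group came from separate cultures or animals, so p-values measure only the spread between these samples, which may be technical.

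Skeletal muscle under glucocorticoids loses protein through ubiquitin ligases, of which MuRF1 and atrogin-1 are the best known, and the FoxO transcription factors switch on both. Insulin and related growth factors act through the adaptors IRS1 and IRS2 on the kinase Akt, which keeps FoxO out of the nucleus and drives the growth kinase mTORC1. REDD1, the sestrins and 4E-BP1 act as brakes on mTORC1 or on the translation that it drives. Irs1 and Irs2 are thus carriers of the growth signal, not brakes.

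In muscle the glucocorticoid receptor and FoxO1 are known to act together at the MuRF1 promoter. For this reason the promoter of Trim63 is shown, and beside it that of Ddit4, a brake on mTORC1 whose window lies at the start of the gene. Each sequence is from RefSeq on build GRCr8, 5′ to 3′, from 250 bases before to 50 bases after a transcript start. The windows lie at chr5:151816986-151817285 on the plus strand for Trim63 and at chr20:28436988-28437287 on the minus strand for Ddit4. Capitals mark matches to 3 motifs searched on both strands: ACANNNTGT, the core of the glucocorticoid response element, AGAACA, a part of the same element that overlaps it, and GTAAACA, the FoxO binding element.
Trim63: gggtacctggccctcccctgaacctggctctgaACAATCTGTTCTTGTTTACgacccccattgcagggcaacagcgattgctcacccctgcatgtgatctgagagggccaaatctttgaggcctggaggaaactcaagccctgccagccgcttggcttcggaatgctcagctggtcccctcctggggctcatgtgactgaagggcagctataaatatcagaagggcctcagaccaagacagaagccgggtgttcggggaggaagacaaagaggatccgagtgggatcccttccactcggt
Ddit4: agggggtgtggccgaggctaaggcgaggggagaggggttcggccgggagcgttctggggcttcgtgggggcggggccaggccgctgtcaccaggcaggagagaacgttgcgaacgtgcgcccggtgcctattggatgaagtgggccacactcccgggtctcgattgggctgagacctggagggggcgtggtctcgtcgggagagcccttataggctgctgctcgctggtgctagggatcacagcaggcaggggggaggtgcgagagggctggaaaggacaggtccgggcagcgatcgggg
The Trim63 window held 1 match to each motif. Its positions count from a start just inside the gene, whose first base lies at chr5:151817209. ACAATCTGT lay at positions -217 to -209 from the transcript start, TGTTCT at -211 to -206 and TGTTTAC at -205 to -199, so the FoxO match began on the base after the glucocorticoid matches ended. The Ddit4 window held none, nor did those of Foxo1 and Irs1. The Sesn1 window, which also held none, lies at a start inside the gene and does not show the region before its first exon. Among 33469 RefSeq promoters of this length, 6.86% held ACANNNTGT, 20.7% held AGAACA, 3.78% held GTAAACA and 0.376% held both ACANNNTGT and GTAAACA. A match describes letters in a window, and binding was not measured here. Promoters of Fbxo32, Foxo3, Irs2 and Eif4ebp1 were not analysed here.

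The muscle ligase Trim63 was at the level of silent genes in control and above it with dexamethasone. Signals are in arbitrary units, with each array scaled to a trimmed mean of 500. Trim63 read 65.7, 60.0, 37.1 and 23.4 on control replicates 1 to 4, and 633.5, 702.2, 207.0 and 622.5 on dexamethasone replicates 1 to 4. The groups did not overlap, and dexamethasone replicate 3 stood far below the other 3 treated arrays. The log2 fold change was 3.51 (SE 0.42, n = 4 per group), an 11.4-fold higher signal. Trim63 passed the filter only through its treated arrays, since the control mean was 46.55.

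For each array a silent-gene level was set, the 95th percentile of signals over 65 genes of other tissues, such as rhodopsin and trypsin. It ran from 129.2 to 214.0 over the 8 arrays. Trim63 was above it on 0 of 4 control arrays and on 4 of 4 treated arrays. With the control signals raised to this level, the fold was 2.84, so the size of the difference depends on how a signal near background is read. The second muscle ligase, Fbxo32, was under the filter and above the silent level on none of the 8 arrays. Its signals were 16.6, 32.4, 16.3 and 66.7 in control and 101.7, 44.7, 77.1 and 70.9 with dexamethasone. These ranges overlapped, and the log2 difference of 1.35 (SE 0.50) lies between signals that cannot be told from those of silent genes.

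**Figure D1:**
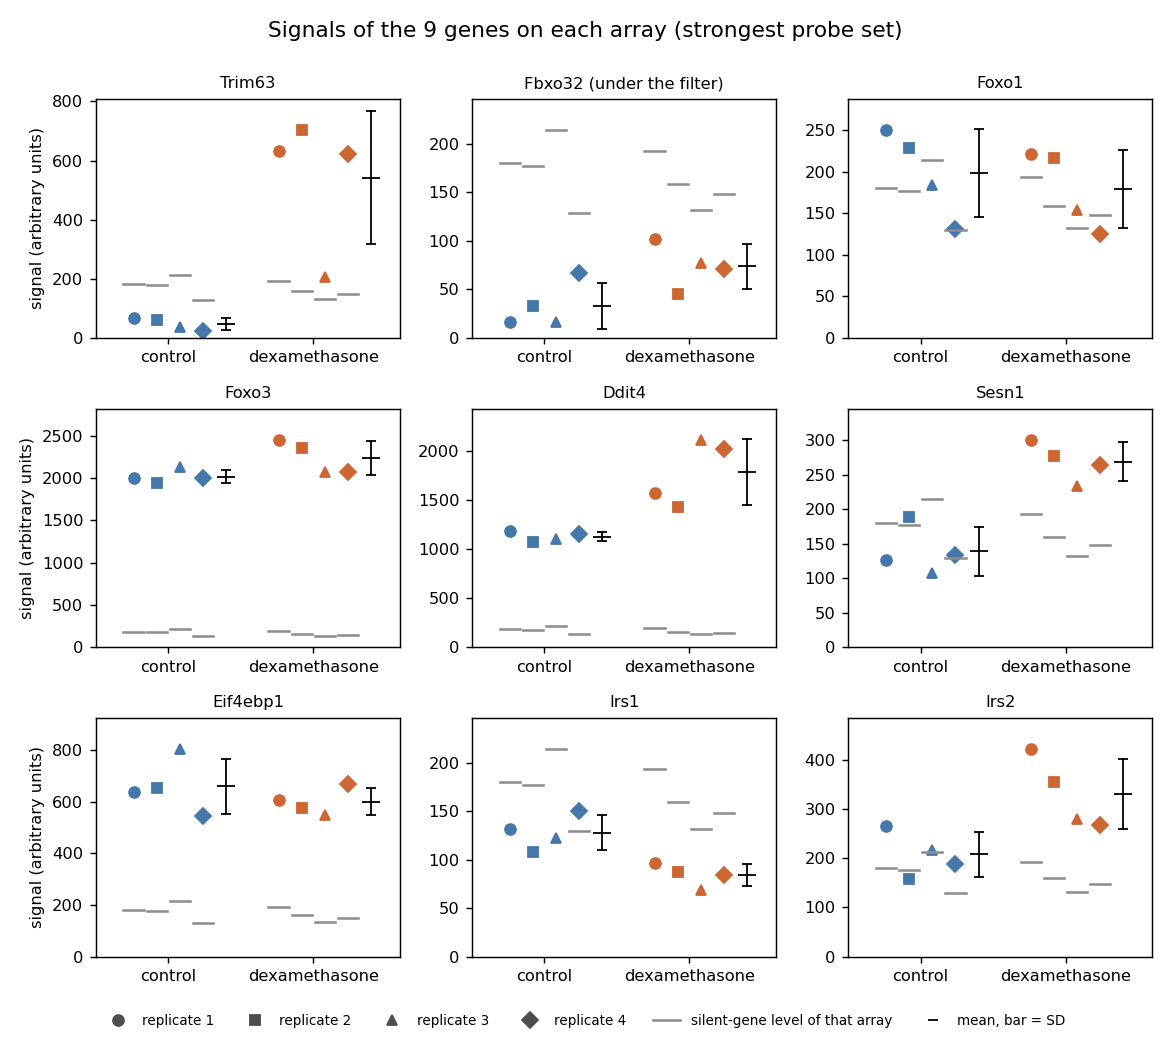
Signals of the 9 genes (vertical axes, arbitrary units, linear from 0) on the 4 control and 4 dexamethasone arrays, with the strongest probe set of each gene. Symbols mark the replicates, the black bar is mean ± SD, and the gray dashes are each array's level of silent genes. Trim63 moves from below the dashes to above them, Fbxo32 stays below on all arrays, and Foxo3, Ddit4 and Eif4ebp1 lie above on all arrays.

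The cultures were read for muscle, since both ligases are known from it. Of 31 skeletal muscle markers, 29 had a named probe set, 23 were above the silent level on no array and 2, Mybpc2 and Myh1, on every array. The master regulator Myod1 was between 3.70 and 33.0 on all arrays, and creatine kinase Ckm between 98.6 and 150.3. The summed signal of the muscle list was 2724 to 3595 in control and 2373 to 3533 with dexamethasone. Of its 10 genes tested, 0 changed by limma's adjusted p and 1 had an unadjusted p under 0.05. Mybpc2, the strongest, was 744.9 ± 112.8 (SD, n = 4) in control and 572.5 ± 155.8 with dexamethasone.

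The signals of both FoxO factors overlapped between the groups. Foxo3, on its strongest probe set, had signals of 2003, 1942, 2131 and 1997 in control and 2454, 2356, 2071 and 2067 with dexamethasone. The ranges overlapped, replicates 1 and 2 of the treated arrays being above all control arrays and replicates 3 and 4 within their range. Its log2 fold change was 0.15 (95% interval -0.06 to 0.35), and it was 0.29 over replicates 1 and 2 and 0.0045 over replicates 3 and 4. Foxo1, likewise on its strongest probe set, read 249.8, 228.6, 184.4 and 131.0 in control and 221.1, 215.9, 154.3 and 125.1 with dexamethasone. In both groups its signal was lower on replicates 3 and 4 than on replicates 1 and 2, and the log2 fold change was -0.15 (95% interval -0.69 to 0.40). The other 4 probe sets of Foxo1 and Foxo3 were under the filter and above the silent level on 0 arrays, with signals from 4.17 to 63.7, so these transcripts cannot be read from them. These arrays read RNA, and the position of FoxO proteins in the cell was not measured.

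Of the 3 members that brake mTORC1 or translation, the groups did not overlap for Ddit4 and Sesn1 and overlapped for Eif4ebp1. Ddit4, which acts on mTORC1 through the TSC complex, had signals of 1184, 1076, 1103 and 1153 in control and 1571, 1430, 2117 and 2027 with dexamethasone. The groups did not overlap, and treated replicates 3 and 4 were above treated replicates 1 and 2. The log2 fold change was 0.64 (SE 0.13), a 1.56-fold higher signal, with 0.41 over replicates 1 and 2 and 0.88 over replicates 3 and 4. Sesn1, a member of the sestrins, which hold back mTORC1 when amino acids are scarce, read 125.9, 188.9, 106.9 and 133.1 in control and 300.4, 277.1, 232.7 and 263.3 with dexamethasone. All treated arrays were above all control arrays, of which only 2 were above the silent level. Its log2 fold change was 0.98 (SE 0.19), with 0.90 over replicates 1 and 2 and 1.05 over replicates 3 and 4.

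Eif4ebp1, which blocks the cap-binding factor eIF4E until mTORC1 phosphorylates it, read 637.1, 652.1, 803.6 and 543.4 in control. It read 607.6, 576.9, 549.4 and 667.6 with dexamethasone, within the control range on all 4 arrays. The log2 fold change was -0.12 (95% interval -0.42 to 0.17).

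The signals of the insulin receptor adaptors did not overlap between the groups, but neither adaptor was called by limma at an adjusted p of 0.05. Irs2 had signals of 266.9, 158.5, 217.6 and 189.3 in control and 422.8, 355.1, 279.5 and 268.6 with dexamethasone. The ranges were next to each other without overlap, the lowest treated array (268.6) being just above the highest control array (266.9), and the log2 fold change was 0.67 (SE 0.20). Irs1 read 131.6, 107.7, 121.8 and 150.1 in control and 96.1, 87.4, 68.8 and 84.0 with dexamethasone. Every treated array was below every control array, with a log2 fold change of -0.60 (SE 0.22). However, Irs1 was above the silent level on only 1 of 8 arrays. It passed the filter only through its control arrays, since the mean with dexamethasone was 84.07.

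**Figure D2:**
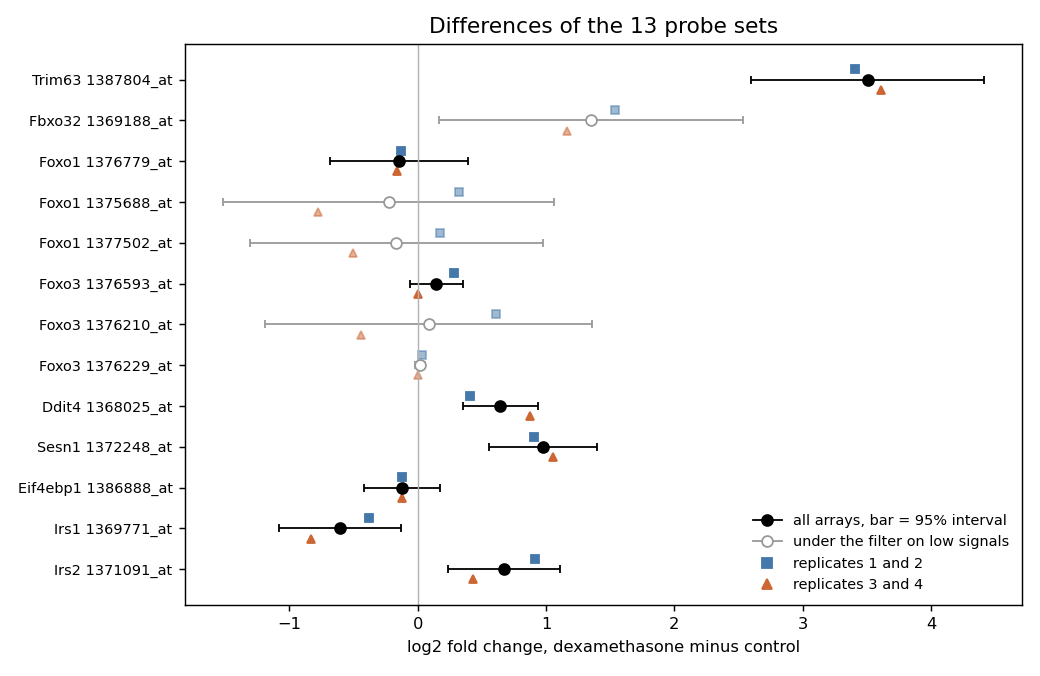
Log2 fold change (dexamethasone minus control, horizontal axis) of the 13 probe sets with its 95% interval from limma. Black circles are probe sets past the filter, open circles those under it, squares replicates 1 and 2 alone and triangles replicates 3 and 4 alone. Trim63 stands at 3.51, Sesn1 at 0.98, Irs2 at 0.67 and Ddit4 at 0.64, Irs1 at -0.60, and the Foxo1, Foxo3 and Eif4ebp1 intervals cross 0.

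In counts, limma called 3 of the 8 tested probe sets higher (Trim63, Ddit4 and Sesn1) and 0 lower, beside 2.69% of all 10368 probe sets tested. The groups did not overlap for 5 of the 8, 4 higher and 1 lower, beside 11.0% of all probe sets tested. The genes were chosen with this contrast in view, and Trim63 and Irs1 passed the filter only through 1 group. Nothing therefore follows from these counts.

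A measure of RNA quality, the beta-actin ratio, also differed between the groups, while the same ratio of GAPDH overlapped. The ratio of the 3′ to the 5′ signal of beta-actin, which grows as RNA degrades or amplification falls short, was 8.10 to 13.7 in control and 6.17 to 8.07 with dexamethasone. With its log2 as a covariate the log2 fold change was 2.88 for Trim63, 0.68 for Sesn1 and 0.64 for Ddit4, and the calls of Ddit4 and Sesn1 were lost. Epithelial markers were above the silent level on all arrays in 11 of 11 cases. By limma's adjusted p, 1 of them fell and 0 rose, and the groups did not overlap for 1 higher and 2 lower. Epcam, the strongest, was 9884 ± 1293 (SD, n = 4) in control and 9481 ± 503.6 with dexamethasone. The endothelial marker Kdr rose by a log2 fold change of 2.00 (adjusted p = 2.98e-05, limma), with 2 of 8 listed endothelial markers tested, 1 higher and 1 lower. The macrophage marker Lyz2 ran from 48.8 to 3415 over the arrays, highest on dexamethasone replicates 1 and 2. Of 4 tested macrophage markers, 2 had a positive and 2 a negative log2 fold change, and 0 were called. Of 7 macrophage markers on the array, 3 were above the silent level on no array. Of 6 endothelial markers on the array, 4 were above the silent level on no array. Markers of other cell types were also read. Tagln (smooth muscle) was 4538 ± 461.4 (SD, n = 4) in control and 3865 ± 379.4 with dexamethasone, and its groups overlapped. All 4 tested smooth muscle markers had a negative log2 fold change (median -0.28), and 0 were called. The summed signal of the smooth muscle list was 5304 to 6129 in control and 4453 to 5166 with dexamethasone, without overlap. Over all arrays, Col3a1 (fibroblast) ran from 1634 to 2593 and Col9a1 (cartilage and bone) from 1393 to 4191. Whether any of these cells or the RNA quality had a part in the differences above was not tested. In bulk RNA, fewer cells of a type and less RNA per cell cannot be told apart.

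The other genes of these pathways were listed by function, but with earlier results of these data known. Their counts and adjusted p-values are therefore descriptions. Over the 5 lists, 113 genes had a tested probe set, and 3 of them rose and 0 fell, or 2.65%. Of all 7627 genes tested, 1.87% rose and 0.852% fell. The median log2 fold change was 0.05 for the 113 genes and -0.04 for all genes tested. The groups did not overlap for 11 of the 113, all higher, or 9.73%, beside 11.4% of all genes tested. With the beta-actin covariate 0 of the 3 calls held, at log2 fold changes of 1.28 for Klf15, 1.01 for Cblb and 0.81 for Eef2k (limma adjusted p = 0.37, 0.081 and 0.14).

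Of the FoxO targets, 23 genes were tested, 1 rose and 0 fell, with a median log2 fold change of 0.13. The gene that rose was Klf15, a transcription factor of amino acid breakdown that the glucocorticoid receptor itself is also known to induce. It read 153.2, 118.4, 85.7 and 120.6 in control and 613.0, 523.4, 186.5 and 309.1 with dexamethasone, and its log2 fold change was 1.66 (SE 0.33, limma adjusted p = 0.021). Klf15 was above the silent level on 0 of 4 control arrays, and with these raised to it the fold was 2.14 in place of 3.15. Its call was lost without control replicate 2 or 3 or dexamethasone replicate 1 or 2 (log2 fold change 1.41 to 1.66). As with Trim63, dexamethasone replicate 3 had the lowest of the treated signals. Pdk4, a kinase that spares glucose and a much used readout of FoxO, was below the silent level on all arrays, at 96.3 ± 13.0 (SD, n = 4) in control and 77.3 ± 21.8 with dexamethasone. Cited2 and Bnip3, named after their values were seen, did not overlap between groups, with log2 fold changes of 0.33 (adjusted p = 0.16, limma) and 0.29 (adjusted p = 0.17, limma).

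Of the regulators and partners of FoxO, 14 were tested and 0 changed, with 1 unadjusted p under 0.05 and a median log2 fold change of 0.01. The largest difference was that of the deacetylase Sirt2, at 0.65 (SE 0.38, limma adjusted p = 0.44), whose groups overlapped. The glucocorticoid receptor gene Nr3c1 was 786.2 ± 133.6 (SD, n = 4) in control and 677.4 ± 48.6 with dexamethasone, a log2 fold change of -0.20 (limma adjusted p = 0.53).

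Of the other ubiquitin ligases and proteases of muscle wasting, 16 were tested, 1 rose and 0 fell, with a median log2 fold change of 0.12. Cblb, a ligase known to send IRS1 to breakdown in unloaded muscle, rose from 396.7 ± 49.5 (SD, n = 4) to 736.4 ± 142.2, a log2 fold change of 0.88 (SE 0.16, limma adjusted p = 0.010). All 4 treated arrays, from 577.9 to 870.2, were above the highest control array at 467.1. Ube2b, a ubiquitin-conjugating enzyme, and Cast, the inhibitor of calpains, were named after their values were seen and did not overlap between groups. Their log2 fold changes were 0.68 (limma adjusted p = 0.066) and 0.49 (limma adjusted p = 0.12).

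Of the other brakes of mTORC1 and translation, 29 were tested and 0 changed by limma, with 2 unadjusted p-values under 0.05 and a median log2 fold change of -0.02. The largest difference was that of the insulin receptor inhibitor Grb10, at 0.54 (SE 0.25, limma adjusted p = 0.33). The groups did not overlap for 2 of the 29, both higher, beside 11.4% of all genes tested. They were Deptor, a subunit that inhibits mTOR, and Tsc1, of the TSC complex, both named after their values were seen. Deptor read 551.9 ± 80.9 (SD, n = 4) in control and 767.4 ± 42.3 with dexamethasone (log2 fold change 0.49, limma adjusted p = 0.072). Tsc1 read 177.7 ± 12.95 (SD, n = 4) in control and 229.0 ± 21.5 with dexamethasone (log2 fold change 0.36, limma adjusted p = 0.25). Ddit4l, the paralog of Ddit4, had a log2 fold change of 0.11 (SE 0.24).

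Of the drivers, the genes of the insulin, Akt and mTORC1 route, 31 were tested, 1 rose and 0 fell, with a median log2 fold change of 0.02. The gene that rose, Eef2k, does not do what the name of the list says: its kinase slows translation elongation, and S6 kinase of this route switches it off. Eef2k read 233.4, 279.4, 251.0 and 193.0 in control and 410.1, 397.3, 435.7 and 414.0 with dexamethasone. Every treated array was above every control array, and the log2 fold change was 0.80 (SE 0.14, limma adjusted p = 0.0093).

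**Figure D3:**
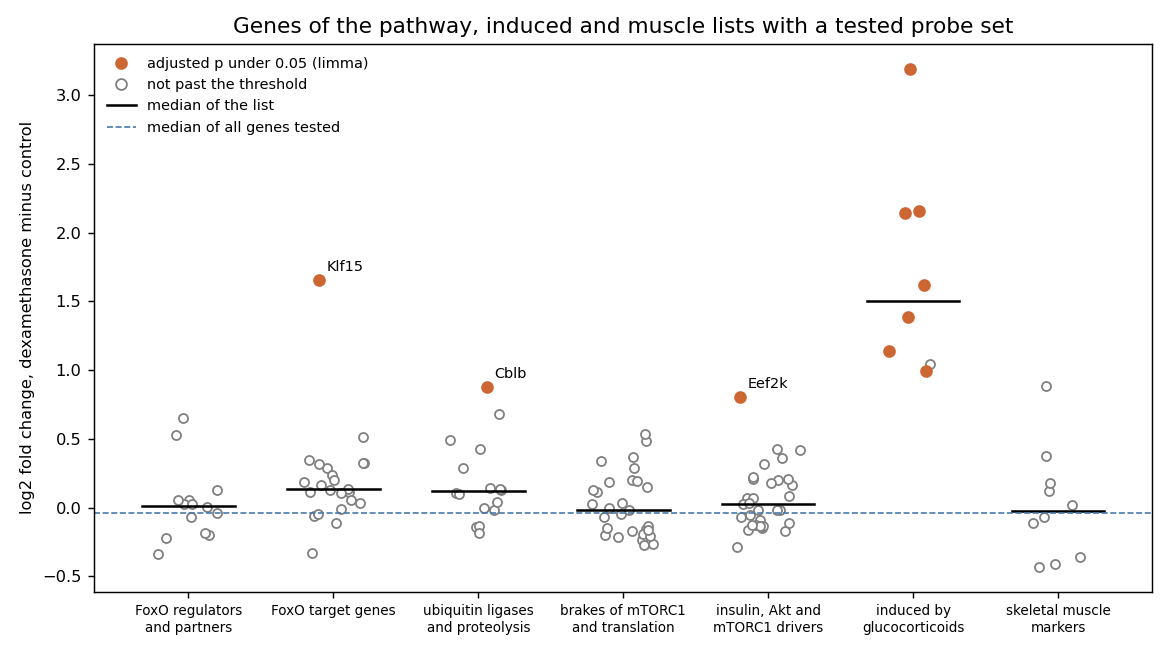
Log2 fold change (vertical axis, dexamethasone minus control) of each gene with a tested probe set in the 5 pathway lists, the glucocorticoid-induced list and the skeletal muscle markers. Filled points passed limma's adjusted p of 0.05, black lines are list medians and the dashed line is the median of all genes tested (-0.04). Klf15, Cblb and Eef2k are the filled points of the 5 pathway lists, and 7 of 8 genes of the induced list are filled.

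Genes known to be induced by glucocorticoids rose in these cultures. Their list was made with earlier results of these data known, so this describes the treatment and is no independent check. Of 8 tested genes of that list, 7 rose and 0 fell, with a median log2 fold change of 1.50. Sgk1 had a log2 fold change of 3.19, Tsc22d3 2.16, Fkbp5 2.14, Per1 1.62, Klf9 1.39 and Errfi1 1.14. Per1 was above the silent level on 0 of 4 control arrays, and with these raised to it the fold was 1.28 in place of 3.07. Per1 passed the filter only through its treated arrays, since its control mean was 72.72.

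The members were also set beside the gene whose pattern was most like theirs, by Pearson's r of log2 signals over the 8 arrays. These r values are descriptions: the 8 points fall into 2 groups of 4 and share scaling and RNA quality. The pattern of Trim63 was closest to those of Mt2A (metallothionein, r = 0.99), Orm1 (an acute-phase protein, r = 0.98) and Gda (guanine deaminase, r = 0.98). With each group's mean taken out, r was 0.91, 0.97 and 0.86. On all 3 of these genes, as on Trim63, dexamethasone replicate 3 was the lowest treated array and control replicate 4 the lowest control array. The 3 genes had log2 fold changes of 1.93, 3.96 and 2.38. Orm1 was above the silent level on 0 of 4 control arrays, and with these raised to it the fold was 8.23. Like Trim63, Orm1 passed the filter only through its treated arrays, with control signals of 118.5, 120.7, 81.2 and 58.7.

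**Figure D4:**
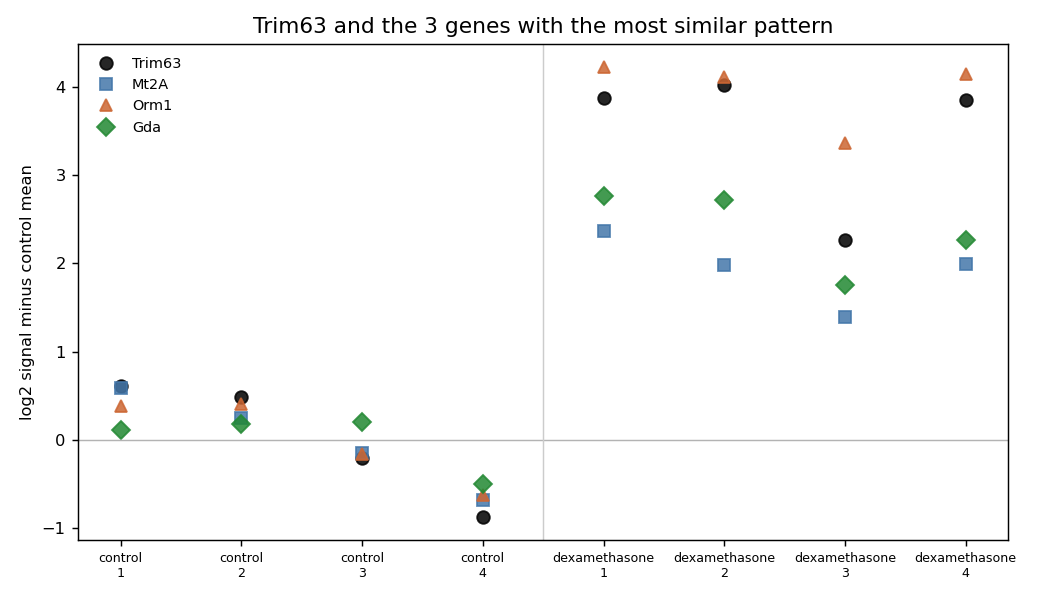
Log2 signal minus the mean of the control arrays (vertical axis) on each of the 8 arrays for Trim63 and the 3 genes most like it. The vertical line divides control from dexamethasone arrays. All 4 genes are lower on dexamethasone replicate 3 than on the other treated arrays, with Trim63 at 2.27 there and from 3.86 to 4.03 on the others.

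Sesn1 was closest to Celf2 (r = 0.97), Vmp1 (r = 0.97) and Tmem64 (r = 0.96), and Ddit4 to Atg4a (r = 0.98), Eif4a2 (r = 0.98) and Washc1 (r = 0.98). Treated replicates 3 and 4 were above treated replicates 1 and 2 in Ddit4 and in all 3 of the genes like it. Foxo3 was closest to Cebpd (r = 0.98), Itpr2 (r = 0.96) and Cited2 (r = 0.95), which like Foxo3 were highest on treated replicates 1 and 2. Foxo1 followed Wdr90 (r = 0.99), RT1-A3 (r = 0.98) and Galm (r = 0.97), whose log2 fold changes lay between -0.16 and -0.08. The adaptor Irs2 was closest to Toe1 (r = 0.96), Traf3ip2 (r = 0.96) and Rbm39 (r = 0.96), and Irs1 to Mrps15 (r = 0.93), Ggt7 (r = 0.93) and Arl6ip4 (r = 0.92). Eif4ebp1 was closest to the cell-cycle enzyme Tk1 (r = 0.97), Aldoa (r = 0.95) and Dhrs7b (r = 0.93), and all 4 were highest on control replicate 3.

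Among the members themselves, Trim63 and Sesn1 had the highest r over the 8 arrays (0.92), which was 0.48 with the group means taken out. Foxo3 and Irs2 had an r of 0.87, and it was 0.76 with the group means taken out. Ddit4 and Foxo3 had an r of 0.27 over all arrays and of -0.82 within the groups, the treated arrays high in one being low in the other. Ddit4 and Trim63, both higher with dexamethasone, likewise had an r of 0.73 over all arrays and of -0.53 within the groups.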

How the data were processed

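Total RNA of SCCD primary cultures was labelled by in vitro transcription in 2 cycles and read on rat 230A arrays. The authors deposited signal intensities, linear and in arbitrary units, made with the Affymetrix statistical algorithms at a target of 500, with neither detection calls nor probe-level values. Replicates 1 and 2 were at that target, and replicates 3 and 4 were below it (trimmed means of 202 to 336), so each array was multiplied to a 2% trimmed mean of 500. A floor of 16 was set, and log2 was taken. Leaving out control probe sets and those whose mean signal was under 100 kept 10368 of 15866 probe sets, which were compared with limma 3.58.1 (R 4.3.3; lmFit, eBayes with a mean-variance trend, two-sided, Benjamini-Hochberg at 0.05). The detection calls, change calls and log ratios of the study need probe-level data. Probe sets under the filter were taken from a fit over all probe sets.

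The annotation gave 12783 probe sets 1 gene, 312 several and 2771 none. A gene of a list or a pattern was represented by its strongest probe set. Members and lists were chosen with earlier results of these data known. Named by rule are all members, up to 6 called genes of each pathway list (otherwise the largest difference), the strongest marker of each list and the 3 genes most like each member. Pdk4, Nr3c1, Ddit4l, Myod1, Myh1 and Ckm were named outside this rule. So were Cited2, Bnip3, Ube2b, Cast, Deptor and Tsc1, after their values were seen. The strongest of the other marker lists were Tagln (smooth muscle, 4 genes tested, 0 changed), Col3a1 (fibroblast, 5 tested, 0 changed), Col9a1 (cartilage and bone, 3 tested, 0 changed), Mitf (melanocyte, 1 tested, 0 changed) and S100b (neuron and Schwann cell, 1 tested, 0 changed). Of macrophage markers 4 were tested and 0 changed, of epithelial markers 11 were tested and 1 fell, and of silent genes 13 were tested and 0 changed. Level comparisons were made within a probe set only. The code was tested on simulated data. Tables and figures used Python 3.11.15, pandas 2.3.3 and matplotlib 3.10.9.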

Additional observations from a re-analysis of the deposited data

Results flagged for a closer look

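Trim63 on dexamethasone replicate 3, at a signal of 207.0 against 622.5 to 702.2 on the other treated arrays, stood apart from its group. On the log2 scale its gap to the nearest array was 0.90 of the range of the group, above the 95% critical value of Dixon's test for 4 samples. Of 40 groups of 4 arrays looked at, this was the 1 that passed, and chance passes about 1 in 20. Without this array the log2 fold change of Trim63 was 3.92, against 3.51 with it. What set the array apart was not tested.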

How the results depend on the processing

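All 3 counts below moved with the processing. Changed probe sets numbered 279. They were 38 with the signals as deposited, 102 with no filter, 578 with a block for the array set (numbers 1 and 2 against 3 and 4), 484 with the replicate block, 440 over replicates 1 and 2 alone, 21 over replicates 3 and 4 alone and 65 with the beta-actin ratio as a covariate. Leaving out 1 array gave 180 to 275, the lowest without dexamethasone replicate 2 (180) or 1 (184). Member probe sets called were 3, and 1 with the signals as deposited, 1 with no filter, 1 with the beta-actin covariate, 1 over replicates 1 and 2, 0 over replicates 3 and 4, and 2 with a filter at 250, with median centring or with no trend. Leaving out 1 array gave 1 to 3. The 1 was without dexamethasone replicate 4, where Trim63 (3.39) kept its call. Ddit4 lost its call without control replicate 2 or 3 or dexamethasone replicate 3 or 4, and Sesn1 without dexamethasone replicate 1, 2 or 4. Changed genes of the pathway lists were 3, and 1 with the signals as deposited, 1 with no filter, 6 with the array set as a block, 5 with the replicate block, 8 over replicates 1 and 2, 0 over replicates 3 and 4 and 0 with the covariate. Leaving out 1 array gave 2 to 4, with 2 without control replicate 2 or dexamethasone replicate 1 or 2.

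Of 181 member values under alternatives 158 kept direction and side of the threshold, 20 lost the call (11 of Ddit4, 8 of Sesn1 and 1 of Trim63, the last over replicates 3 and 4 alone at 3.61) and 3 reversed: Foxo1 was 0.018 with the signals as deposited and -0.33 to 0.014 with 1 array left out (0.014 without dexamethasone replicate 4), and Eif4ebp1 was 0.039 with the signals as deposited. Grb10 was -0.15 with the covariate. The cause was not tested. Same-numbered samples deviated together with r of 0.35, 0.25, 0.03 and 0.41 for numbers 1 to 4. Control replicate 4 was closest to dexamethasone replicate 3 (0.43), and control replicate 1 had 0.33 with dexamethasone replicate 2. Across the array sets, control replicate 1 had -0.33 and -0.37 with dexamethasone replicates 3 and 4. Control replicate 4 had -0.41 with each of dexamethasone replicates 1 and 2. Control replicates 2 and 3 showed this less, with r from -0.20 to 0.25. The labels do not say whether same-numbered samples are paired, and the main fit held neither the pairing nor the array set. The number of arrays, and signals near the silent level in Trim63, Fbxo32, Irs1 and Sesn1, limit the precision.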
